A study of Sus scrofa with 9 samples.

Results

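In porcine valvular interstitial cells (PVICs), 184 genes were higher or lower in osteogenic induction medium (OIM) than in control medium, and lay farther in the same direction when basic fibroblast growth factor (bFGF) was added to OIM. Of the 19535 genes in the table, 13662 had enough counts to be tested. A gene belonged to the set when its mean expression in OIM over control and its mean in bFGF over OIM were both at least 1.4-fold higher, or both at least 1.4-fold lower. Its libraries also had to be free of overlap in each of these steps, and at least 1 group had to reach a mean of 1 CPM (counts scaled to a common library size). In total 97 genes were higher in both steps, 0.71% of those tested, and 87 were lower in both steps, 0.637% of those tested. Because these values chose the genes, their levels in the 3 groups are given as a description and no p-value is attached to them.

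Valvular interstitial cells are the fibroblast-like cells that build and repair the matrix of heart valve leaflets. In osteogenic medium with extra phosphate they can lay down calcium, which is used as a culture model of aortic valve calcification. bFGF is a mitogen that binds FGF receptors, signals through RAS and ERK and is known to keep mesenchymal cells dividing.

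The cells came from aortic valve leaflets of wild-type pigs aged 4 to 5 months, and the valve endothelium had been digested and wiped off before the interstitial cells were isolated. They were grown in DMEM with 10% fetal bovine serum. The control group stayed in DMEM. In the OIM group the medium was supplemented with insulin at 1e-07 mol/L, ascorbic acid at 50 µg/mL and sodium dihydrogen phosphate at 2 mmol/L, and the bFGF group received the same OIM with 50 ng/mL bFGF, each for 3 days according to the sample labels. There were 3 libraries per group. Nothing states that they came from separate animals or cultures, so the spread between them may be technical. No group received bFGF without OIM. An effect of bFGF that needs the medium and one that does not therefore cannot be told apart.

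The libraries held 46773376 to 67371523 gene counts, with the 3 bFGF libraries below the other 6. Expression is given as CPM scaled by TMM, which equalises the bulk of genes between libraries, and CPM values are not divided by gene length, so levels are compared between libraries and not between genes. All 12 markers of interstitial cells and fibroblasts were detected, at a summed 70238 to 76062 CPM in control, 66861 to 70039 CPM in OIM and 41718 to 42094 CPM in bFGF libraries. Of 10 endothelial markers 9 were in the table and 2 of them stayed under 1 CPM in all groups. Their sum was 73.3 to 75.6 CPM in control, 87.5 to 89.3 CPM in OIM and 170.2 to 179.7 CPM in bFGF libraries. The 6 smooth muscle markers summed to 7294 to 7636 CPM in control, 7593 to 10352 CPM in OIM and 845 to 954 CPM in bFGF libraries, and 7 macrophage markers to 14.9 to 17.9, 15.8 to 16.7 and 9.26 to 9.51 CPM. In RNA from whole cultures, fewer cells of a type and less RNA per cell cannot be told apart.

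Among the 97 higher genes the median OIM step was 1.55-fold and the median bFGF step 2.82-fold, for a median of 5.06-fold between control and bFGF. Among the 87 lower genes these medians were 1.59-fold, 2.58-fold and 4.33-fold lower. The bFGF step was the larger one for 86 of the higher and 76 of the lower genes. The median share of the whole log2 change already present in OIM was 34.6% (quartiles 27.4% and 44.3%) for the higher and 32.8% (quartiles 25.3% and 43.5%) for the lower genes. Both steps reached 2-fold for 29 higher but only 8 lower genes. Groups of members by role, as used below, were formed after their values had been seen. For comparison, the step rule alone was met by 1.9% of genes (higher) and 1.41% (lower) for OIM over control, and by 17.2% and 17.3% for bFGF over OIM.

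**Figure D1:**
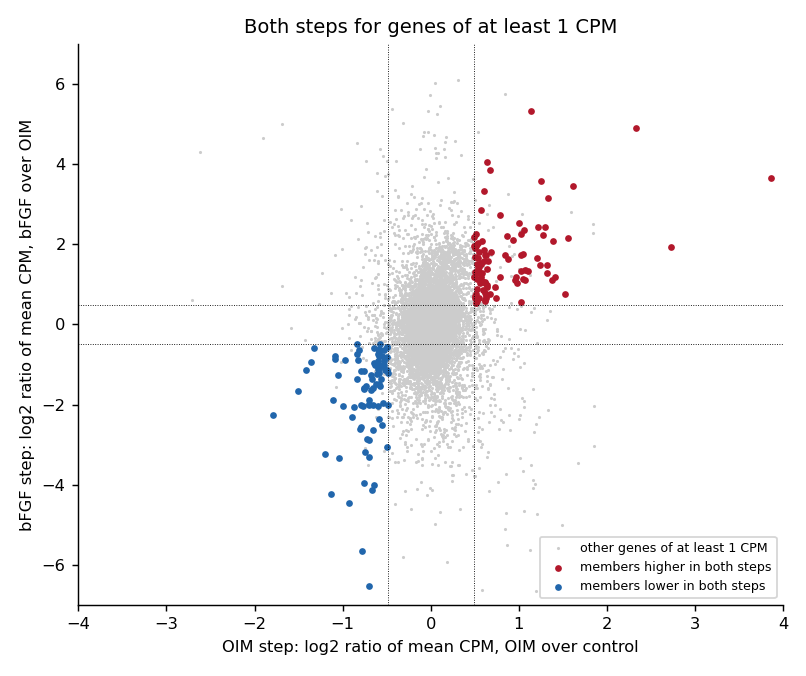
Each point is 1 of 12119 genes with a group mean of at least 1 CPM; the horizontal axis gives the OIM step and the vertical axis the bFGF step, both as log2 ratios of mean CPM. The 183 members drawn lie in the upper right and lower left corners beyond the dotted limits, most of them farther from 0 on the vertical axis; 1 member with a control mean of 0 is not drawn, and 4 other genes lie off the axes.

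The limits cut through a continuum. SERPINB9 and NPFFR2 were the higher genes nearest to the limit, both at 1.4-fold in the OIM step, and HMGCS1, an early enzyme of the mevalonate pathway, lay just outside at 1.399-fold. On the lower side FGF11 and CSPG5 were just inside with OIM over control at 0.713. GABRP was just outside with OIM over control at 0.718, and P2RY6 just outside with bFGF over OIM at 0.717. A further 44 higher and 27 lower genes met both ratios but had overlapping libraries.

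Among the higher genes, 11 that serve cholesterol and lipid supply are described here. Cells make cholesterol through the mevalonate pathway and take it up from lipoproteins, and the SREBP transcription factors drive both routes by binding sterol elements in promoters. Of 30 tested genes that matched a list of cholesterol and fatty acid synthesis by symbol, 6 were members, all higher, among them MVK, MVD and FASN. LOC100625049, which RefSeq names as the enzyme that the list holds as IDI1, was missed by this match and counted outside the list. A further 8 members with a role in lipid supply, EBP, ACAT2, AACS, LOC100625049, SCARB1, FABP3, PNPLA3 and OSBPL3, were grouped with these 3 after their values had been seen. The 11 genes had OIM steps of 1.43- to 2.88-fold (median 1.54) and bFGF steps of 1.46- to 5.15-fold (median 1.8).

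The SREBP letters TCACNCC, the core of a sterol element, were searched on both strands of the RefSeq promoters of Sscrofa11.1, read from 250 bases before to 50 bases after the annotated start. PNPLA3, a lipase of lipid droplets, was the 1 gene of the 11 that holds them, at 2 places. Both windows are shown because this gene had the largest OIM step of the 11, and capitals mark the match, which begins 177 bases before the start in the first window and at base 30 of the transcript in the second.
PNPLA3 upstream, chr5:5092758-5092787, minus strand: tccggccacccTCACTCCagcgcaagccct
PNPLA3 transcript, chr5:5092552-5092581, minus strand: gccgggtgacaTCACGCCgggaccgcctgg
The same letters occur in 15.2% of all 13611 promoters, in 16.5% of those of the higher and in 18.4% of those of the lower members. Of the 6 higher members in the cholesterol list, 2 hold them (33.3%), neither of them among the 11 genes.

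Enzymes of the mevalonate and sterol pathway had small steps. MVK, mevalonate kinase, stood at 11, 9.34 and 8 CPM in control, 14.6, 13.8 and 12.5 CPM in OIM and 29.6, 29.3 and 30.7 CPM in bFGF libraries. MVD, which makes isopentenyl diphosphate, went from 24.6, 26.5 and 25.6 through 39.1, 41.4 and 38.6 to 77.3, 76 and 74.2 CPM. LOC100625049, which RefSeq names isopentenyl-diphosphate Delta-isomerase 1 and which acts next, had steps of 1.43- and 1.46-fold. EBP, a later sterol isomerase, had steps of 1.59- and 1.68-fold, ACAT2, the cytosolic thiolase at the head of the pathway, 1.43- and 1.69-fold, and AACS, which activates acetoacetate for lipid synthesis, 1.51- and 1.8-fold. The bFGF step was the larger one in all 6 enzymes.

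Genes of fatty acid and lipoprotein handling came next. FASN, fatty acid synthase, stood at 597, 669 and 630.0 CPM in control, 1093, 1089 and 948 CPM in OIM and 1973, 2058 and 1929.7 CPM in bFGF, the highest mean CPM of the higher members. FABP3, a fatty acid carrier of the cytosol, went from 17.9, 15.6 and 17.1 through 33.7, 39.3 and 32 to 190.0, 187 and 164 CPM, 2.08- and 5.15-fold. SCARB1, the HDL receptor, read 19.8, 22.5 and 17.1, then 29.9, 34.2 and 26, then 108, 109 and 108 CPM, so most of its 5.46-fold difference belonged to bFGF. PNPLA3 stood at 2.92, 1.52 and 2.04 CPM in control, 6.7, 5.69 and 6.23 CPM in OIM and 8.68 to 11.6 CPM in bFGF libraries and showed the opposite division, 2.88-fold in OIM and 1.69-fold with bFGF. Only 11 of the 97 higher genes had the larger step in OIM, and PNPLA3 was 1 of them.

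**Figure D2:**
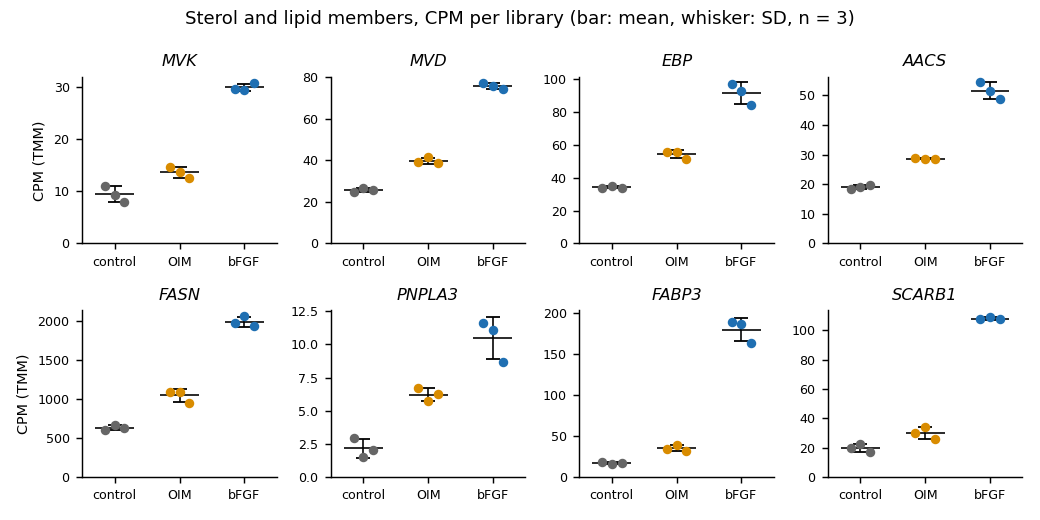
CPM per library (vertical axes, each starting at 0) for 8 lipid genes in the control, OIM and bFGF groups; points are libraries, bars the mean and whiskers the SD of 3 libraries. Every OIM point lies above every control point and below every bFGF point, with PNPLA3 climbing more in OIM and SCARB1 and FABP3 mainly with bFGF.

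The other 24 tested genes of the cholesterol list did not meet the rule and could be tested with edgeR's quasi-likelihood model. In OIM against control 6 rose, where 1.49% of all genes did, and none of the 24 fell, where 0.864% did. At an adjusted p of at most 0.05 without a fold limit, 22 of 24 were higher and none lower, where 7.69% and 5.87% of all genes were. With bFGF against OIM 7 rose and 1 fell, against a background of 17.7% and 18.4%, and without the fold limit 15 were higher and 8 lower, against 33.8% and 33.5% of all genes. These shares of all genes are the background for every list below. They include the members, whereas members were taken out of each list. In a list that moved with bFGF, few calls in OIM in the same direction are therefore partly set by the rule. The largest changes of the 24 genes with bFGF were those of ELOVL6 and HSD17B7. ELOVL6, a fatty acid elongase, had a log2 fold change of 1.31 (SE 0.05, adjusted p = 2.98e-14), and HSD17B7, a sterol ketoreductase, 1.0 (SE 0.06, adjusted p = 3.21e-11). SCD, the desaturase that makes oleate, changed by 0.54 (SE 0.04, adjusted p = 6.2e-09) in OIM and by -0.55 (SE 0.04, adjusted p = 4.19e-11) with bFGF on the log2 scale. The median log2 change of the 24 genes was 0.42 in OIM and 0.20 with bFGF, while that of all genes tested was near 0. Summed over the 24 genes, expression was 3191 to 3238 CPM in control, 4283 to 4428 CPM in OIM and 4395 to 4628 CPM in bFGF libraries. In bFGF against control 16 of the 24 rose and none fell, where 18.9% and 20% of all genes did. The split of calls with bFGF depended on the scaling: library totals in place of TMM turned the share of higher calls among all called genes from 49.0% to 68.8%.

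Cell cycle and DNA replication genes formed the second group of higher members. CCND1 (cyclin D1), the CDK inhibitor CDKN2B, the transcription factors E2F1, E2F2 and E2F5, the licensing factors CDT1 and MCM3, and the division or repair genes TRAIP, DDX11, SKA1, KIF18B, DEPDC1, AUNIP and SFR1 make 14 genes, of which CCND1, E2F1, CDT1 and MCM3 stood in the gene lists and the other 10 were added after their values had been seen. Their OIM steps were 1.4- to 1.79-fold (median 1.46) and their bFGF steps 2.41- to 4.79-fold (median 3.23).

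In this group the OIM step rested on 1 library for most genes. MCM3, a subunit of the replicative helicase, stood at 18.2, 18.1 and 17.5 CPM in control, 20.6, 35.2 and 20.9 CPM in OIM and 124, 117 and 126 CPM in bFGF libraries. OIM replicate 2 was well above the other OIM libraries, which lay close to control, whereas all 3 bFGF libraries were several-fold higher. E2F1, which switches on S phase genes, read 7.94, 9.55 and 8.67, then 11, 16.3 and 10.2, then 48.2, 50.1 and 46.7 CPM, and CCND1, which starts the G1 to S transition, 268, 276 and 254, then 379.8, 469 and 336, then 1110.4, 1140.3 and 1114 CPM. OIM replicate 2 was the highest OIM library for 13 of the 14 genes. Without it the median OIM step of the group was 1.32-fold, that of MCM3 1.16-fold, that of E2F1 1.22-fold and that of CCND1 1.35-fold, and 3 of the 14 genes still met the rule: CDKN2B, SFR1 and AUNIP.

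For the lipid genes the same library mattered less. Without OIM replicate 2 their median OIM step was 1.52-fold, and 10 of 11 still met the rule, ACAT2 being the exception. Over all 97 higher genes 73 remained members without OIM replicate 2, and over the 87 lower genes 74. It was the highest OIM library for 66% of the higher and 39.1% of the lower members, against 36.7% of all genes of at least 1 CPM. The summed CPM of 35 non-member replication genes moved with it, at 740 CPM and 722 CPM in OIM replicates 1 and 3, 967 CPM in OIM replicate 2, 695 to 715 CPM in control and 2427 to 2505 CPM in bFGF libraries.

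**Figure D3:**
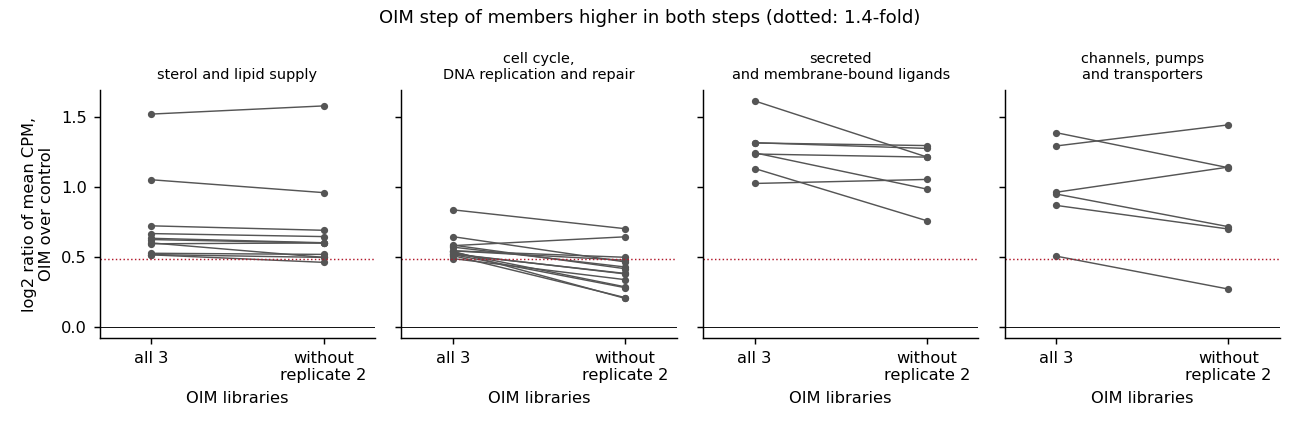
Log2 ratio of mean CPM in OIM over control for members higher in both steps, with all 3 OIM libraries and without OIM replicate 2; each line is 1 gene, each panel 1 group of genes, and the dotted line is the 1.4-fold limit. Most cell cycle lines drop below the limit when the library is left out (11 of 14 genes no longer meet the rule), while most lipid and ligand lines stay above it.

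The replication and division lists outside the members were tested. All 35 non-member genes of DNA replication and all 36 of mitosis rose with bFGF against OIM, and none of either list was called in OIM against control. The rule had taken 3 members out of the replication list and 0 out of the mitosis list. The absence of OIM calls among the replication genes is thus partly set by the rule. Without the fold limit 10 and 16 of them were higher in OIM and none lower. UHRF1, which copies DNA methylation, changed by 2.23 (SE 0.10, adjusted p = 8.15e-14) with bFGF and ORC1, of the origin recognition complex, by 2.19 (SE 0.11, adjusted p = 1.02e-12) on the log2 scale.

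Secreted and membrane-bound ligands made up 7 of the higher members, with OIM steps of 2.04- to 3.07-fold and a median bFGF step of 4.8-fold. IL11, a cytokine of the IL-6 family, stood at 12.7, 14.3 and 12.5 CPM in control, 28.1, 41.5 and 24 CPM in OIM and 369.8, 388 and 363 CPM in bFGF libraries, 2.37- and 12-fold. GDNF, a neurotrophic factor, read 1.47, 2.14 and 2.19, then 4.83, 5.1 and 4.55, then 14.1, 12.9 and 13.5 CPM, and BTC, the EGF receptor ligand betacellulin, 1.39, 1.45 and 1.32, then 2.99, 3.38 and 3.47, then 8.35, 10.2 and 9.08 CPM. GDNF and BTC thus more than doubled in each step, with tight libraries, while IL11 was mainly a bFGF gene with 1 higher OIM library.

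Guidance ligands were higher as well. SEMA7A, a semaphorin held at the membrane by a lipid anchor, stood at 1.27, 0.957 and 0.904 CPM in control, 1.62, 3.33 and 1.91 CPM in OIM and 88.8, 91.5 and 95.7 CPM in bFGF libraries, and its 40.2-fold bFGF step was the largest of the higher members. SEMA6A, a transmembrane semaphorin, went from 0.44, 0.462 and 0.603 through 1.44, 2.29 and 0.893 to 17.1, 17.7 and 15.7 CPM, and EFNB2, the ephrin that marks arterial endothelium in development, from 1.38, 1.45 and 1.22 through 2.97, 2.64 and 2.64 to 13, 11.6 and 15 CPM. All 3 were below 4 CPM in every control and OIM library. Of the other 44 tested genes of the guidance list, 10 rose and 13 fell with bFGF against OIM, where 17.7% and 18.4% of all genes did, and 3 rose in OIM against control. EPHB6, a kinase-dead ephrin receptor, changed by 0.84 (SE 0.10, adjusted p = 6.19e-06) in OIM and by -5.09 (SE 0.14, adjusted p = 6.15e-17) with bFGF on the log2 scale. EPHA10 had the largest log2 value of the list with bFGF, -8.19 (SE 1.05, adjusted p = 1.74e-06).

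Of the ERK feedback and target genes, which report growth factor signalling, IL11 and CCND1 were members. Among the other 34, 21 rose and 3 fell with bFGF against OIM, and 1 rose and 1 fell in OIM against control. AREG and EREG, both EGF receptor ligands like BTC, changed by 6.08 (SE 0.19, adjusted p = 3.57e-16) and 5.39 (SE 0.27, adjusted p = 6.88e-13) with bFGF, beside log2 values of 0.32 (SE 0.32, adjusted p = 0.58) and 0.14 (SE 0.41, adjusted p = 0.869) in OIM. No change in OIM was called for either ligand.

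Receptors, adhesion molecules and clotting factors made up a further 15 of the higher members. THBD (thrombomodulin), F10 (coagulation factor X) and F2R (the thrombin receptor) belong to the clotting system. THBD stood at 19.7, 18.9 and 18.1 CPM in control, 30.5, 29.3 and 27.3 CPM in OIM and 48.9, 50.5 and 50.8 CPM in bFGF libraries. F10 read 1.03, 1.4 and 0.804, then 1.73, 2.98 and 1.47, then 8.54, 9.69 and 8.43 CPM, and F2R 2.18, 2.26 and 3.2, then 3.93, 4.21 and 3.43, then 10.3, 12.1 and 12.4 CPM. The endothelial marker sum given above moved in the same order, and its part in THBD and EFNB2, which endothelium also expresses, was not tested. ROR2, a Wnt5a receptor, had steps of 1.54- and 1.63-fold, ITGB4, the integrin of hemidesmosomes, 1.55- and 3.34-fold, and CDH2 (N-cadherin) 1.42- and 1.58-fold. Without OIM replicate 2, CDH2 was the 1 gene of the 15 that no longer met the rule.

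The remaining higher genes covered matrix, transport and signalling. SHAS2, which RefSeq names hyaluronan synthase 2, the enzyme that spins hyaluronan into the matrix, stood at 33.7, 39.6 and 36.6 CPM in control, 56.6, 84.9 and 48.6 CPM in OIM and 421, 410.5 and 428 CPM in bFGF libraries. ADAM8, a membrane protease, had steps of 1.59- and 14.3-fold and DIRAS3, an imprinted growth-inhibiting GTPase, 1.56- and 16.7-fold, and both no longer met the rule without OIM replicate 2. GLDC, of the glycine cleavage system, read 0.661, 0.28 and 0.268, then 0.941, 1.09 and 0.998, then 9.4, 8.07 and 9.5 CPM, and SHMT1, which joins serine and glycine to folate, had steps of 2.07- and 3.38-fold. SLCO2A1, the prostaglandin transporter, had steps of 2.62- and 4.23-fold, and the sodium channel SCN11A 1.83- and 4.61-fold. The potassium channels KCNS3 and KCNN4 had 1.95- and 1.42-fold OIM steps, and 2.26- and 3.77-fold bFGF steps, and KCNN4 no longer met the rule without OIM replicate 2.

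MYOM1, a protein of the sarcomere M-band, stood at 17.2, 19.2 and 19.4 CPM in control, 39.3, 41 and 35.3 CPM in OIM and 84.3, 88.9 and 78 CPM in bFGF libraries, while the smooth muscle marker sum was lowest in bFGF. MAML3, a Notch coactivator, had steps of 2.03- and 3.3-fold. PEG10, an imprinted gene of retroviral origin and the third highest in CPM after FASN and CCND1, had steps of 1.54- and 2.03-fold. NPTX2 and LRRC7 were at or under 3 counts in every control library, which is taken as the floor. Against that floor they were at least 39.6-fold and 34.2-fold higher in bFGF, with OIM libraries at 0.111, 0.0614 and 0.315 CPM for NPTX2 and 0.0184, 0.123 and 0.035 CPM for LRRC7.

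Genes of low-oxygen and nutrient sensing made up 6 of the lower members. Cells short of oxygen stabilise HIF factors, which raise glycolytic enzymes and their own regulators, and ARRDC4 and its relative TXNIP are glucose-sensing arrestins that restrain glucose uptake. NDUFA4L2, a hypoxia-induced mitochondrial protein, stood at 34.2, 41.6 and 34.6 CPM in control, 18, 18.8 and 13.6 CPM in OIM and 1.06, 1 and 0.596 CPM in bFGF libraries, 2.19- and 19-fold lower per step. EGLN3, the prolyl hydroxylase that marks HIF for decay and is itself a HIF target, read 98.8, 102 and 94, then 57.5, 58.1 and 60.1, then 6.53, 6.57 and 6.21 CPM. ENO2, an enolase isoform, read 28.5, 31.1 and 29.1, then 17.5, 17.7 and 15.8, then 3.92, 2.38 and 2.04 CPM. The libraries of EGLN3 lay close together in each group, whereas the bFGF libraries of NDUFA4L2 and ENO2 spread more widely relative to their level. CA12, a carbonic anhydrase, was 1.74- and 4.03-fold lower, and ANGPTL4, a secreted inhibitor of lipoprotein lipase, 1.5- and 2.01-fold lower.

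The other 30 genes of the glycolysis and hypoxia list are those left after the rule took out 4 members. A gene at least 1.4-fold lower in both steps without overlap would be a member. The absence of calls in OIM among the rest is therefore largely set by the rule. None was called in OIM against control. At an adjusted p of at most 0.05 without the fold limit, 16 were lower and none higher. With bFGF against OIM 23 of 30 fell and none rose. ANKRD37 changed by -4.25 (SE 0.20, adjusted p = 2.54e-13) and BNIP3, a mitophagy receptor, by -3.43 (SE 0.05, adjusted p = 2.74e-20), beside -0.05 (SE 0.14, adjusted p = 0.873) and -0.17 (SE 0.04, adjusted p = 0.011) in OIM. All 6 lower members of this group, CA12 and ARRDC4 included, met the rule without each of the 9 libraries in turn.

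ARRDC4 stood at 79.2, 99.4 and 74.8 CPM in control, 43, 54.4 and 48.2 CPM in OIM and 8.88, 7.61 and 8.2 CPM in bFGF libraries, 1.74- and 5.9-fold lower per step. TXNIP, which is no member, took another course: its log2 fold change in OIM was -2.70 (SE 0.29, adjusted p = 2.12e-06) and that with bFGF 0.60 (SE 0.31, adjusted p = 0.0957) with bFGF. Of the 26 non-member genes in the list of FOXO and insulin-sensing genes, 2 fell and none rose in OIM against control, while 18 fell and 3 rose with bFGF against OIM. FBXO32, a muscle atrophy ubiquitin ligase, changed by -2.32 (SE 0.07, adjusted p = 5.95e-16) with bFGF, and KLF15 by -2.12 (SE 0.14, adjusted p = 3.47e-11). The promoter of ARRDC4 holds the E-box CACGTG, the letters bound by carbohydrate-responsive and other helix-loop-helix factors, 140 bases before its start. It also holds the AP-1 letters TGANTCA, a pair of windows shown here with the match in capitals.
ARRDC4 E-box, chr7:81669707-81669736, minus strand: aaacggactgtgCACGTGcacacttgcgta
ARRDC4 AP-1, chr7:81669615-81669644, minus strand: cgccaatgaaaTGACTCAgaagccatttac
The E-box was found in 8.05% of lower, 10.3% of higher and 9.17% of all promoters.

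EGLN3 has a non-coding neighbour that fell with bFGF. LOC110261683 lies on the same strand within 8.5 kb downstream of EGLN3 (chromosome 7, 65805513 to 65833536), and 2 of its transcripts had enough counts to be tested. XR_002346137.1 had 108, 99.1 and 65.8 estimated counts in control, 58.3, 50.9 and 66.5 in OIM and 2.62, 1.69 and 1.71 in bFGF libraries. With every bFGF library at the floor of 3 counts or fewer, it was at least 17.7-fold lower in bFGF than in OIM (edgeR adjusted p = 0.000227), and its log2 fold change in OIM against control was -0.64 (SE 0.30, adjusted p = 0.844). XR_002346139.1, at the same floor after rounding, was at least 12.1-fold lower in bFGF than in OIM (adjusted p = 0.00582) and had a log2 value of 0.14 (SE 0.51, adjusted p = 0.983) in OIM. The fall with bFGF was called for both transcripts and a change in OIM for neither. Among all 2220 non-coding transcripts tested, 6.17% fell and 3.24% rose with bFGF against OIM, and 0.045% rose in OIM against control. Whether reads that run on past the end of EGLN3 contribute was not tested.

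A set of 18 lower members has roles in innate immunity and inflammation. It was grouped by role after the values had been seen, and the complement and cytokine lists hold 6 of the 18. Other members with such roles were higher in both steps and stood in other groups, among them NLRP3, IL1RL1 and IRF5. Without OIM replicate 2 their OIM over control was 1.37, 1.72 and 2.25 and their bFGF over OIM 7.78, 3.3 and 2.26. NLRP3 then no longer met the rule. C3, the central complement protein, stood at 523, 624 and 521 CPM in control, 334, 349.5 and 343 CPM in OIM and 49.7, 47.6 and 41.3 CPM in bFGF libraries. LCN2 (lipocalin 2), which starves bacteria of iron, read 52.6, 53.7 and 51.2, then 32.5, 32.3 and 31.9, then 2.76, 3.23 and 3.81 CPM. SOD2, the mitochondrial superoxide dismutase that inflammatory signals induce, read 988, 1000.5 and 915, then 583, 629.7 and 631, then 211, 211 and 190.4 CPM. Each was about 1.6-fold lower in OIM, by 1.63-, 1.63- and 1.57-fold, and they then parted, with bFGF steps of 7.4-, 9.87- and 3.01-fold.

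The chemokines among them were CXCL14, CX3CL1 and CCL19. CXCL14, a chemokine of epithelia and fibroblasts, went from 8.81, 11.3 and 8.71 through 5.46, 6.94 and 4.71 to 0.186, 0.173 and 0.731 CPM, 15.7-fold lower in the bFGF step. CX3CL1 (fractalkine) had the modest steps of 1.5- and 1.72-fold and IL34, a ligand of the macrophage CSF1 receptor, 1.48- and 2.59-fold. NOS2, inducible nitric oxide synthase, stood at 26.9, 34.6 and 26.1 CPM in control, 18.2, 20.02 and 17.1 CPM in OIM and 1.47, 0.692 and 0.962 CPM in bFGF libraries. FGL2, a membrane prothrombinase, was 1.57- and 16.2-fold lower, CFI, which inactivates C3b, 1.5- and 1.58-fold, and LGALS3 (galectin 3) 1.79- and 1.67-fold. The genes differed mostly in the bFGF step, from 1.58- to 17.7-fold, and little in the OIM step, from 1.41- to 1.86-fold. The macrophage marker sum was also lowest in bFGF but was not lower in OIM than in control, and 5 of its 7 markers were under 1 CPM in all groups.

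The non-member genes of these lists are those left after the rule took out its members. Few calls in OIM among them are therefore partly set by the rule. Of 19 complement genes none was called in OIM against control, with 1 higher and 4 lower without the fold limit, and 12 fell and 2 rose with bFGF. C5 and C1S, a protease of the classical pathway, changed by -1.99 (SE 0.48, adjusted p = 0.00107) and -1.90 (SE 0.05, adjusted p = 1.91e-17). Of 21 cytokines and chemokines none was called in OIM, with 1 higher and 2 lower without the fold limit, and 9 rose and 5 fell with bFGF. TNFSF10 (TRAIL) changed by -4.60 (SE 0.13, adjusted p = 1.44e-16) and TNFSF15 by -2.06 (SE 0.50, adjusted p = 0.00118). The cytokine list therefore held both the higher member IL11 and the lower members CXCL14, NOS2, CX3CL1 and IL34.

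**Figure D4:**
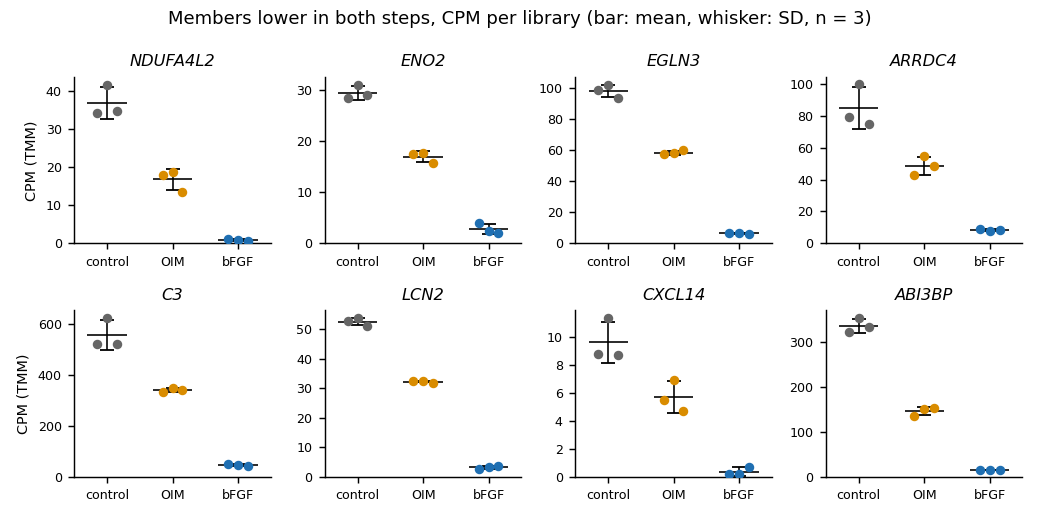
CPM per library (vertical axes, each starting at 0) for 8 genes lower in both steps; points are libraries, bars the mean and whiskers the SD of 3 libraries per group. In each panel the OIM points lie between the control and bFGF points, and the bFGF points are near 0 for NDUFA4L2, CXCL14 and LCN2.

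Matrix genes and proteases numbered 9 among the lower members. ABI3BP, a matrix protein that binds collagen, stood at 322, 353 and 334 CPM in control, 136, 150.1 and 153 CPM in OIM and 16.1, 14.9 and 15.7 CPM in bFGF libraries, 2.3- and 9.4-fold lower. LOXL2, which crosslinks collagen and had the highest mean CPM of the lower members, read 2511, 2765 and 2534, then 1589, 1629 and 1575, then 405, 403 and 397 CPM. COL6A6, a collagen VI chain, read 82.6, 83.3 and 84.5, then 40.3, 43.7 and 43.2, then 23.7, 21.3 and 23.2 CPM, with near-equal steps of 1.97- and 1.86-fold. FREM1, a basement membrane protein, was 2.84- and 3.18-fold lower, and its partner FRAS1 was 1.53- and 3.3-fold higher, so the partners moved in opposite directions. CTSK (cathepsin K), the collagen-degrading protease of osteoclasts, was 1.41- and 1.77-fold lower, PRSS23, a secreted serine protease, 1.65- and 7.3-fold, and ADAMTS15, a proteoglycan-cleaving protease, 1.77- and 1.86-fold. CTSK did not meet the rule without OIM replicate 2, nor with DESeq2's size factors in place of TMM. Of 37 non-member genes of collagens and their processing, none was called in OIM, with 10 higher and 9 lower without the fold limit, and 22 fell and 5 rose with bFGF. COL11A1 changed by -3.13 (SE 0.08, adjusted p = 1.03e-17) and COL8A2 by -2.66 (SE 0.17, adjusted p = 1.98e-11) with bFGF.

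Genes of hormone, lipid and vitamin handling were lower as well. LOC100625479, which RefSeq names cytochrome P450 1B1, an oxidase of steroids and xenobiotics, stood at 504, 484 and 463 CPM in control, 228, 229.7 and 226 CPM in OIM and 133, 125 and 134 CPM in bFGF libraries. DIO2, the deiodinase that activates thyroid hormone, read 56, 52.1 and 51.8, then 19.4, 31.6 and 23.3, then 6.64, 6.46 and 6.91 CPM. AGT (angiotensinogen) was 1.58- and 6.2-fold lower, IGFBP3, a carrier of insulin-like growth factors, 2.68- and 2.19-fold, and APOE, a protein of lipoprotein particles, 1.55- and 2.01-fold. LOC100625479 and IGFBP3 were among the 11 lower genes whose OIM step was the larger one. CIDEC, which enlarges lipid droplets, went from 3.32, 2.54 and 2.14 through 1.22, 1.55 and 1.44 to 0.0746, 0.0577 and 0.0577 CPM. SGPP2, a sphingosine phosphate phosphatase, was at the floor of 3 counts or fewer in every bFGF library, at least 20.3-fold lower than in OIM. In the list of lipid droplets and adipogenic factors, FABP3 and PNPLA3 were higher and CIDEC, APOE and ANGPTL4 lower, and of the 22 non-members 8 fell and 3 rose with bFGF. LEP changed by -3.96 (SE 0.66, adjusted p = 2.61e-05) and CEBPD by -2.14 (SE 0.04, adjusted p = 2.31e-19).

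Signalling genes among the lower members included a receptor and a ligase of the Notch pathway. NOTCH3, the Notch receptor of mural cells, stood at 71.7, 84.2 and 71 CPM in control, 55.1, 45.4 and 54.4 CPM in OIM and 9.96, 10.4 and 7.08 CPM in bFGF libraries, and DTX1 (Deltex 1) was 1.42- and 1.47-fold lower. Neither met the rule without OIM replicate 2. ID2, an inhibitor of differentiation factors that BMPs induce, read 62.2, 64.9 and 58.4, then 39.9, 39.9 and 39.1, then 20.2, 20.6 and 19.9 CPM. RGCC, a regulator of the cell cycle, was 1.78- and 2.58-fold lower. HRK, a BH3-only protein that promotes apoptosis, had the largest OIM step of the lower genes and read 8.72, 7.94 and 9.11, then 1.79, 3.07 and 2.61, then 0.559, 0.75 and 0.25 CPM. TMEM255A went from 69.4, 70.7 and 69.8 through 41.5, 36 and 45 to 0.914, 0.769 and 0.731 CPM, 50.7-fold lower in the bFGF step.

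None of the 184 genes came from the lists of mineral and osteoblast genes (21 tested), contractile and myofibroblast genes (34), elastic fibre and matrix proteoglycans (38), interferon response and antigen presentation (32), the ATF4 response (32), mitosis (36), ribosome biogenesis (35) or valve and mesenchymal transcription factors (46). Members made up only 0.71% (higher) and 0.637% (lower) of all genes tested. At these shares a list of 21 to 46 genes is likely to hold few members or none. The absence of members therefore does not set any single list apart from all genes, and the lists were not tested together. Of the 34 contractile genes, 6 rose and none fell in OIM against control, while 30 fell and 1 rose with bFGF against OIM. Of the 21 mineral and osteoblast genes none was called in OIM, with 3 higher and 4 lower without the fold limit, and 6 rose and 4 fell with bFGF.

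Further lists held 1 to 3 members each, which were taken out before the calls were counted. Beside their counts stand the shares of all genes, 1.49% rising and 0.864% falling in OIM against control, 17.7% and 18.4% with bFGF against OIM, and, without the fold limit, 7.69% and 5.87% in OIM and 33.8% and 33.5% with bFGF. Of 36 non-member genes of the TGF-beta and BMP pathway 4 rose and 1 fell in OIM against control, and 8 rose and 20 fell with bFGF against OIM. Of 40 Wnt pathway genes 3 rose and 1 fell in OIM, and 8 rose and 18 fell with bFGF. None of 14 Notch pathway genes was called in OIM, with or without the fold limit, and 2 rose and 7 fell with bFGF. Of 29 integrins and cadherins 2 rose in OIM, and 12 rose and 11 fell with bFGF, and of 42 ion channels and pumps 1 rose and 2 fell in OIM, and 11 rose and 16 fell with bFGF. Of 31 genes of lysosome and autophagy 1 fell in OIM, where 1 was higher and 14 lower without the fold limit, and 14 fell and none rose with bFGF, where 6 were higher and 21 lower without it. Of 32 genes of the NRF2 and glutathione response 1 fell in OIM, where 3 were higher and 12 lower without the fold limit, and 7 rose and none fell with bFGF, where 19 were higher and 5 lower without it. The remaining lists with a member were called in both directions with bFGF. Of 28 metalloproteinases and inhibitors 6 rose and 9 fell with bFGF, and 1 rose and 1 fell in OIM, where 2 were higher and 13 lower without the fold limit. Of 20 glucocorticoid-responsive genes 2 rose and 11 fell with bFGF and none was called in OIM, where 2 were higher and 5 lower without the fold limit. Of 36 genes of the FGF, PDGF and VEGF family 13 rose and 7 fell with bFGF and 1 rose in OIM. Of 27 IGF and EGF family genes 5 rose and 14 fell with bFGF and 1 fell in OIM, and of 51 G protein-coupled receptors and RGS genes 19 rose and 20 fell with bFGF and 3 rose and 1 fell in OIM.

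The rule used all 9 libraries, so it was also applied to 6 libraries at a time and read in the other 3. When replicate 1 of each group was left out, 158 genes were chosen as higher and 107 as lower. In the left-out libraries 81.0% and 92.5% of them stood in the chosen order of control, OIM and bFGF, where 24.9% and 23.0% of all genes of at least 1 CPM did. With replicate 2 left out the shares were 87.6% of 97 and 87.1% of 101 genes, against 30.8% and 30.3%, and with replicate 3 left out 76.6% of 167 and 80.6% of 144 genes, against 24.8% and 23.3%. For genes chosen as higher without replicate 1 the median log2 OIM step was 0.65 in the libraries that chose them and 0.42 in those left out, without replicate 2 it was 0.71 and 0.66, and without replicate 3 it was 0.70 and 0.34. For genes chosen as lower it was -0.66 and -0.56, -0.65 and -0.67, and -0.67 and -0.42. The median log2 bFGF step of the genes chosen as higher was 1.46 and 1.63, 1.45 and 1.36, and 1.5 and 1.86 in the same order, and that of the genes chosen as lower -1.29 and -1.43, -1.30 and -1.35, and -1.36 and -1.47. Both ratios were met in the left-out libraries by 56 to 64 of the genes chosen as higher, 33.5% to 66.0% of them, and by 57 or 58 of those chosen as lower, 39.6% to 56.4%. Of all genes 1.19% to 3.12% and 0.998% to 1.63% met them. With replicate 1 or 3 left out most of the genes chosen as higher thus did not meet both ratios. A single OIM library enters both steps of this reading. The genes were also chosen for a bFGF step, so in the left-out libraries mainly the order of control and OIM was open. The shares of all genes in order are therefore no matched comparison.

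**Figure D5:**
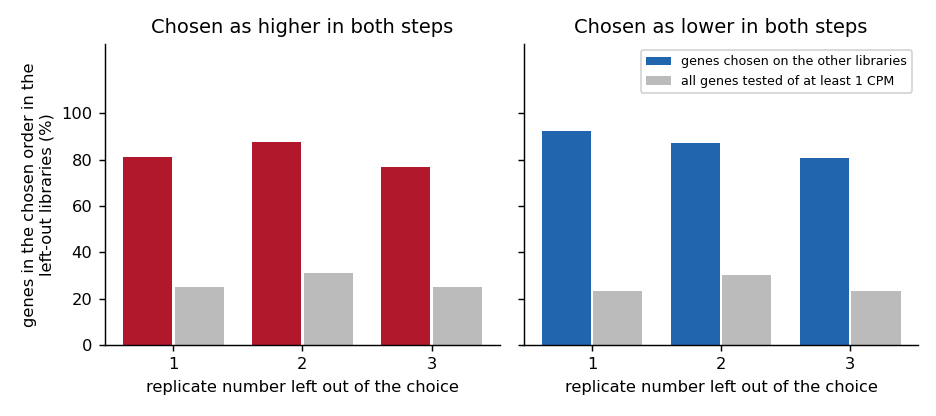
Share of genes (vertical axis, in percent) whose left-out control, OIM and bFGF libraries stood in the order for which the genes were chosen on the other 6 libraries, by the replicate number left out; grey bars give the share of all genes of at least 1 CPM in that order. Coloured bars lie between 76.6% and 92.5% and grey bars between 23.0% and 30.8%. Grey bars are not matched for the size of the bFGF step.

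The rule was met by 60 higher and 60 lower genes without each of the 9 libraries in turn. When libraries were scaled by their totals only, 17 of the lower members, among them CFI, DTX1, FGF11 and CSPG5, and 2 of the higher ones, LRRC7 and CHMP4C, no longer met it. Among the genes that met the rule without each library were all 7 ligands, both glycine genes and 8 of the 11 lipid genes, but 3 of the 14 cell cycle genes.

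Other transcripts at the members were measured too. Of 72 non-coding transcripts in or within 10 kb of a member, 12 had enough counts to be tested, at 10 members, and 3 were called with bFGF against OIM and none in OIM against control. Besides the pair near EGLN3 this was XR_001308039.2 of LOC106509979, which overlaps SHAS2 on the opposite strand (chromosome 4, 17583360 to 17589050). It had 67.8, 62.0 and 69.9 estimated counts in OIM and 20.2, 34.4 and 20.4 in bFGF libraries, a log2 fold change of -1.28 (SE 0.32, adjusted p = 0.0405). This is opposite to SHAS2 itself. The tool that counted reads and its strand setting are not given in the sources used here, so reads of a gene and its antisense partner cannot be told apart. The transcripts tested near FABP3, NRCAM, AFAP1L1, ID2, RRAD, E2F2, CDH2 and DIRAS3 were not called in either comparison. In bFGF against control, XR_002345156.1 near DIRAS3 was called higher, with a log2 fold change of 1.23 (SE 0.31, edgeR adjusted p = 0.0324).

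Circular RNAs, which arise when an exon end is spliced back to an earlier exon start, were listed for 11 members, 15 in all. The 1 that could be tested lies in SHAS2 (chromosome 4, 17596492 to 17597118), with 8, 0 and 4 junction counts in control, 0, 0 and 3 in OIM and 13, 12 and 13 in bFGF libraries. Its OIM libraries are at the floor and no fold is given. It was not called with bFGF against OIM (edgeR adjusted p = 0.237 over 165 circular RNAs), and 0% of the 165 were by edgeR, the only tool run on them, although 15 had an unadjusted p under 0.05.

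All 184 members could be placed on a RefSeq gene of Sscrofa11.1, and their promoters were compared with all 13611 read. The ETS letters CCGGAAG occurred in 3.09% of higher and 3.45% of lower members, below the 14.6% of all promoters. The GC box GGGCGG was found in 41.4% of lower, 63.9% of higher and 61.1% of all promoters, and the median GC content of the promoters was 58.0%, 64.0% and 61.7%. The AP-1 letters TGANTCA, bound by FOS and JUN factors, were found in 11.5% of lower, 4.12% of higher and 4.83% of all promoters. The lower members with AP-1 letters include LCN2, CXCL14 and ENO2, and the higher ones IL11, which is shown beside them because it moved the other way.
LCN2, chr1:268609778-268609807, plus strand: ctgggggccgcTGACTCAggagctggccag
CXCL14, chr2:137813157-137813186, minus strand: agaaatctcagTGAGTCAccgagtggttct
ENO2, chr5:63809021-63809050, minus strand: ccggctgctccTGACTCAtcgggggctccg
IL11, chr6:59544974-59545003, minus strand: ggcagggagggTGAGTCAggatgtgtcagg
Both strands were searched, matches are descriptions and not binding sites, and GC content differs between the sets.

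A few members are neighbours in the genome. AACS and SCARB1 lie 132.2 kb apart on chromosome 14 and CDT1 and MVD 110.4 kb apart on chromosome 6, each pair higher in both steps. ACAT2 and SOD2, 66.5 kb apart on chromosome 1, and IQGAP2 and F2R, 9.1 kb apart on chromosome 2, moved in opposite directions.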

How the data were processed

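RNA of PVICs in 3 groups of 3 libraries was sequenced by the authors. The labels name a ribosomal RNA removal kit, 3 days of treatment and, in the submitters' processing notes, Trimmomatic, HISAT2, StringTie and Sscrofa11.1, whereas the methods of the paper name Cutadapt, STAR, poly-A selection and a shorter treatment. The counting tool is not given in the sources used here. The deposited values are raw or estimated counts, which the authors did not normalize, whole for 19535 genes and 6179 circular RNAs, and with 44.6% of values not whole for 9888 non-coding transcripts, which were rounded here. There were 19 columns without a name, not used. Samples were grouped by their labels.

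Counts were filtered with filterByExpr (minimum count 10, total 15), scaled by TMM and fitted with edgeR 4.0.16 (quasi-likelihood, 3 groups, 6 residual degrees of freedom) in R 4.3.3. A call needs a Benjamini-Hochberg adjusted p of at most 0.05 over all features tested and a log2 fold change of 0.5 or more in size. The comparisons of OIM with control and of bFGF with OIM share the OIM libraries. Depth was 46773376 to 67371523 gene counts per library and the common biological coefficient of variation 0.0602. Where no library of a group exceeded 3 counts, the group was taken as at the floor, which covers counting error only.

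Members and gene lists were chosen with earlier results of these data known. Named are, per direction, the 15 members of at least 5 CPM with the largest smaller step, every member in a list, the 2 nearest to the limit on either side, the 3 highest in mean CPM, the 2 most changed called non-members of a list, and members with a non-coding or circular transcript of at least 10 counts; further members are named for a textbook role, after their values were seen. Lists without a paragraph of their own are given in counts only, and some members that the rule names are not reported here. Same-numbered libraries did not deviate together (correlations -0.03 to 0.0035), so numbers were not used as pairs. Circular RNA ends were checked against the build: 5248 of 6179 had both ends at exon ends, and 0 after a shift by 7 bases. Tried besides were DESeq2 1.42.0, its size factors within edgeR, scaling by library totals, other filters and limits, a replicate block and leaving out each library. The scripts were tested on simulated data.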

Additional observations from a re-analysis of the deposited data

How the results depend on the processing

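Of 97 higher and 87 lower members, a ratio limit of 1.5 left 62 higher genes, a limit of 2 left 29 higher and 8 lower, and a minimum mean of 5 CPM left 44 lower. Leaving out 1 library gave 82 to 152 higher genes (152 without OIM replicate 3) and 87 to 118 lower ones. Scaling by library totals only, which raises the median log2 bFGF step of all genes by 0.22, kept 95 of the 97 higher and 70 of the 87 lower members. DESeq2's size factors kept 97 and 83, losing CSPG5, CTSK, FGF11 and WDR63. With library totals the smaller step of 5 named members moved, among them COL6A6, LOC100625479, LGALS3 and CFI, without a change of sign. Counts of called non-member list genes moved by over 1.5 times in 10 cases with library totals, where 118 stayed. They moved in 2 cases with DESeq2, 1 with its size factors and 1 with the replicate block.

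Without a fold limit, 1853 genes were called in OIM against control (321 with it), 9203 in bFGF against OIM (4939) and 9590 in bFGF against control (5323). Leaving out 1 library gave 283 to 349, 4772 to 5082 and 5207 to 5361 calls. A replicate block gave 309, 4917 and 5285 calls, so it changed none of these counts by over 1.5 times; replicate numbers are names only. Library totals turned the share of higher calls from 49.0% to 68.8% in bFGF against OIM and from 48.5% to 68.1% in bFGF against control. The share of genes in order in the left-out libraries, 83.2% over both directions and all replicates, was 78.5% to 87.4% when a single replicate was left out of the choice and read. Rounding non-coding counts down left their 3 calls. Low counts limit the 30 higher and 43 lower members under 5 CPM.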
